A study of Mus musculus with 12 samples.

Results

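The 9 genes of the epithelial acute phase and complement response studied here, Saa1, Saa2, Saa3, Lcn2, Pigr, C3, Cfb, Cfi and Cd55, were chosen by symbol and followed in murine jejunal enteroids lacking Hdac1 or Hdac2. Of these 9 genes, 7 had a row among the 18929 genes listed in the count tables. The levels of Saa1 and Saa2 were not analysed here. The data are RNA-seq read counts per gene from 12 libraries, 4 of control (villin-Cre, labelled wild-type), 4 of Hdac1-deficient (HDAC1-/-) and 4 of Hdac2-deficient (HDAC2-/-) enteroids. All cultures were grown for 5 days in Matrigel with EGF, Noggin and R-Spondin 1. The mutant enteroids came from mice with floxed Hdac1 or Hdac2 alleles deleted by Cre under the villin promoter, which is active in intestinal epithelium, on a mixed genetic background that includes C57BL/6J and CD1. The age of the animals was not given in the sources used here. The methods describe crypts of 1 mouse per genotype, so the 4 libraries within each genotype may share 1 animal, the p-values measure the spread between these libraries, and the effect of a genotype cannot be told apart from that of the mouse or the line grown from it.

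Enteroids are cultures of intestinal epithelium grown from crypts, without the immune, stromal and microbial partners of the tissue. Acute phase proteins are secreted during infection or injury, mostly by the liver, and several are also made by epithelial surfaces after cytokine or Toll-like receptor signalling through STAT3, NF-kB and C/EBP factors. In the alternative pathway of complement, factor B (Cfb) joins cleaved C3 to form the convertase that cleaves more C3, while factor I (Cfi) cuts C3b and C4b with the help of cofactors and CD55 speeds the decay of the convertase on the cell's own membrane. The polymeric immunoglobulin receptor (Pigr) carries IgA and IgM across the epithelium, lipocalin 2 (Lcn2) binds bacterial siderophores, and the serum amyloid A proteins bind lipids and retinol.

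Library depth ranged from 20693200 to 30658628 counts, and a count of 3, used as the detection floor, equalled 0.0979 to 0.145 CPM (counts scaled to a library of 1000000). Each targeted transcript was lowest in its own mutant: Hdac1 was at 90.6 ± 2.76 CPM in control and 4.23 ± 0.834 CPM in Hdac1-deficient enteroids, and Hdac2 was at 137 ± 3.85 CPM in control and 75.9 ± 2.89 CPM in Hdac2-deficient enteroids (mean ± SD, n = 4). Hdac1 was also lower in Hdac2-deficient (75.3 ± 4.4 CPM) and Hdac2 in Hdac1-deficient enteroids (112 ± 3.83 CPM), both without overlap with control. Epithelial markers were abundant, with all 9 of 9 listed and a summed level of 6898 to 9131 CPM per library. Of 13 immune markers, 6 were listed, and Cd3e, Cd4, Cd8a, Ms4a1, Adgre1 and S100a8 were not among them. The immune markers summed to 10.1 to 11.6 CPM in the control libraries, 12.2 to 13.4 CPM in the Hdac1-deficient and 9.02 to 11.2 CPM in the Hdac2-deficient libraries. Of 11 mesenchymal and endothelial markers, 5 were listed, and their sum lay between 5.20 and 7.71 CPM in all libraries.

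Promoter sequences from RefSeq, 250 bases before to 50 bases after the start site, were matched by symbol for 7 of the 9 genes. Cfi and Cfb had no entry, so their promoters were not searched. They were searched on both strands for TTGCNNAA, a form of the C/EBP site, for TTCNNNGAA, a form of the STAT site, and for the NF-kB consensus. TTGCNNAA occurred in 5 of these 7 promoters and in 10.8% of all 32851 promoters of the same length. Among the genes with a match, C3 alone was tested for a change in level, and the windows of Saa1 and Saa2 are nearly the same. The promoters of the tested genes Cd55 and Pigr had no TTGCNNAA match. Since Cfi and Cfb could not be searched, whether a match goes with a change in level was not tested. These windows are shown because TTGCNNAA was the one motif found in several of the genes. Each is written 5′ to 3′ on the gene's strand, with the match in capitals (for Saa3 the match lies on the opposite strand).
Saa1: ctgtgctcccaTTGCACAAtgagggagaat
Saa2: ctgtgctcccaTTGCACAAtgagggaaaat
Saa3: ggtaagtgggaTTATGCAAgatcaaacagg
Lcn2: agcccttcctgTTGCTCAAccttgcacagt
C3: aggaaactatgTTGCGAAAttttgggcagt
On GRCm38.p6, the windows lie at chr7:46743144-46743173 (minus strand) for Saa1, chr7:46751639-46751668 (plus) for Saa2, chr7:46715757-46715786 (minus) for Saa3, chr2:32387937-32387966 (minus) for Lcn2 and chr17:57228163-57228192 (minus) for C3. The matches began 182, 183, 99, 216 and 45 bases before the start site, in that order. TTCNNNGAA was present in 8.30% of all promoters and in 1 of the 7, that of Pigr, at position 40 after the start site. The NF-kB consensus was present in 8.46% of all promoters and in 0 of the 7, which says only that these letters were not in these windows.

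The promoters of C3 and Cd55 are given whole, since these 2 genes changed in both mutants and represent a promoter with and one without a match. Capitals mark the TTGCNNAA match. The C3 promoter lies at chr17:57228087-57228386 and that of Cd55 at chr1:130462695-130462994, both on the minus strand of GRCm38.p6.
C3: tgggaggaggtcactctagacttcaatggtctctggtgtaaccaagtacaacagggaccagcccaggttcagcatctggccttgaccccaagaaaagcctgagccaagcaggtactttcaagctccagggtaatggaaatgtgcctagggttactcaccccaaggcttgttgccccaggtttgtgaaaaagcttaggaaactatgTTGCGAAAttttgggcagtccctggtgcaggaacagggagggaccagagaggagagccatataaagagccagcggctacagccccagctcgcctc
Cd55: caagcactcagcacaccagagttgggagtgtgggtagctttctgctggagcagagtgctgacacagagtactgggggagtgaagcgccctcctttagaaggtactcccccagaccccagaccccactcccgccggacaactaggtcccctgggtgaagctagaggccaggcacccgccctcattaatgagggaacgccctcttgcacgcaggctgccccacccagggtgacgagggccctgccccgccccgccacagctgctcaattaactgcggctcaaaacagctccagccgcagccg

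The complement genes Cfi, Cfb, C3 and Cd55 were higher in both mutants than in control, whereas Pigr was raised by a small amount in Hdac2-deficient enteroids. Lcn2 and Saa3 had few counts, 1 to 11 per library. At these counts, Lcn2 was higher in all Hdac1-deficient libraries (0.188 to 0.356 CPM) than in control (0.0995 to 0.177 CPM). The fold changes of Cfi, Cfb, C3 and Cd55 ran from 1.29 (95% CI 1.19 to 1.40, Cd55 in Hdac1-deficient) to 6.62 (95% CI 5.21 to 8.41, Cfi in Hdac2-deficient enteroids). A gene is described as changed where edgeR's quasi-likelihood test, with Benjamini-Hochberg adjustment over every tested gene, gave an adjusted p no greater than 0.05, and as called when its fold change was also above 2. Of the 9 genes, 5 passed the filter on low counts and were tested, and Lcn2 and Saa3 did not pass. In Hdac1-deficient enteroids, 4 of the 5 were changed upward and 0 downward, where 32.7% of the 14246 tested genes changed upward and 31.9% downward. In Hdac2-deficient enteroids, 5 of the 5 were changed upward, where 31.4% of the 14007 tested genes changed upward and 30.9% downward. Only Cfi was called in Hdac1-deficient enteroids (1 gene, background 6.87% called higher), and Cfi and C3 were called in Hdac2-deficient enteroids (2 genes, background 5.45%). The median log2 fold change of the 5 tested genes was 0.556 and 0.677, respectively, and that of all tested genes was -0.00397 and -0.00356. C3 reached the filter's limit in 4 of 4 mutant but 2 of 4 control libraries, so it passed with the help of the groups in which it was higher, and these counts and medians carry no test. Both comparisons use the same 4 control libraries.

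**Figure D1:**
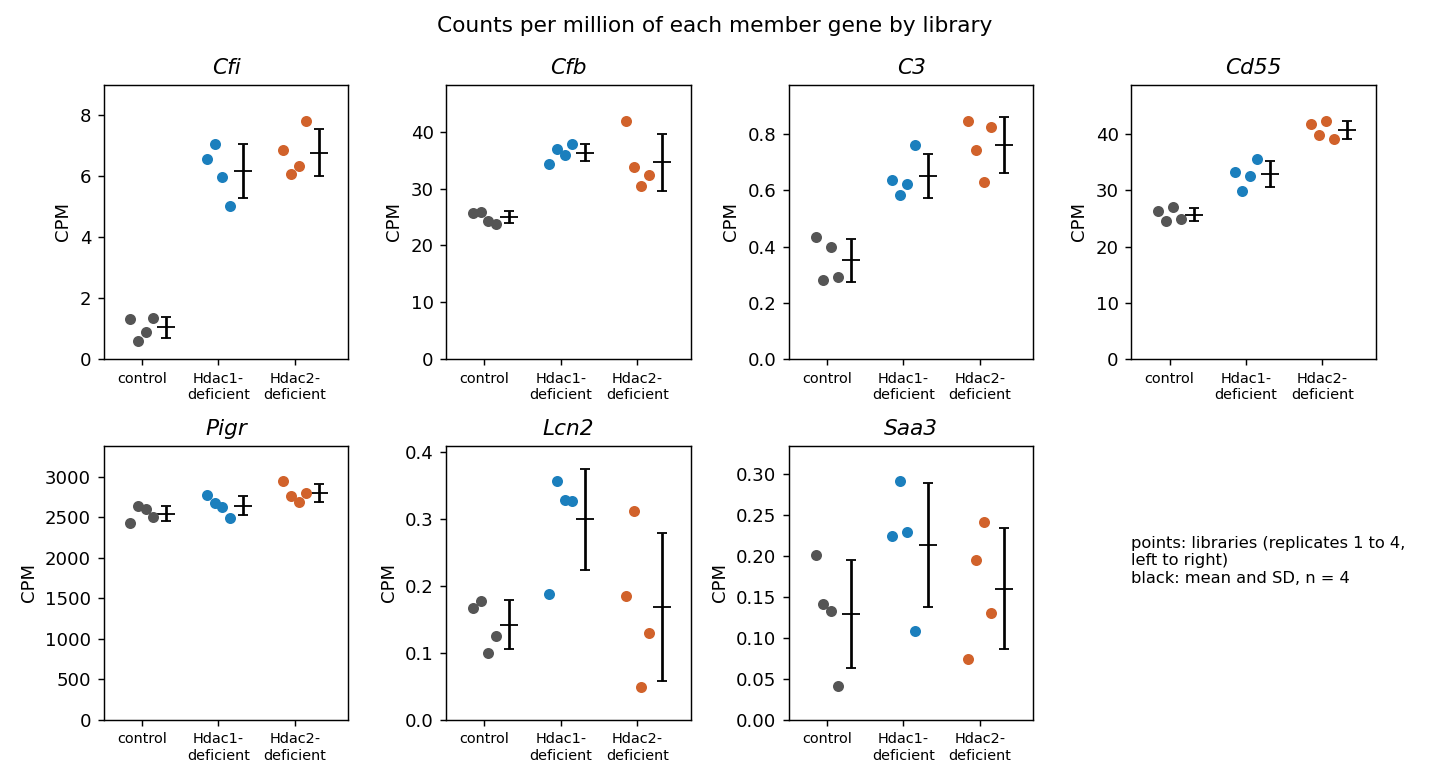
CPM (vertical axis, from 0) of the 7 listed genes in each library of the 3 groups; coloured points are libraries and black marks are the mean and SD (n = 4). Cfi, Cfb, C3 and Cd55 have no control library as high as the lowest mutant library, and Lcn2 and Saa3 lie below 0.4 CPM throughout.

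The levels of the 7 genes in control enteroids differed widely. Compared per kilobase of exon, Pigr ranked at place 64 of 18817 genes with a length, at 632 ± 23.2 CPM per kb, and it took 0.255% of all counts. Cfb followed at 8.83 ± 0.370 CPM per kb (place 5419), Cd55 at 5.29 ± 0.244 (place 7240) and Cfi at 0.466 ± 0.159 (place 12609). C3 at 0.0685 ± 0.0149, Lcn2 at 0.0543 ± 0.0139 and Saa3 at 0.0496 ± 0.0253 CPM per kb stood at places 16068, 16440 and 16565, and these 3 overlapped within their spread. The central component C3 was thus far below its convertase partner Cfb in the same libraries, with a ratio per kb of 0.00776 ± 0.00163 in control.

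Cfi (ENSMUSG00000058952, chr3:129835884-129875332, plus strand, GRCm38), the protease that inactivates C3b and C4b, showed the largest change of the tested genes. Its counts in control replicates 1 to 4 were 39, 17, 27 and 32, which is 1.31, 0.601, 0.895 and 1.34 CPM. In Hdac1-deficient replicates 1 to 4 it had 175, 218, 182 and 138 counts, or 6.57, 7.06, 5.97 and 5.00 CPM. In Hdac2-deficient replicates 1 to 4 it had 186, 155, 131 and 180 counts, or 6.86, 6.06, 6.34 and 7.81 CPM. Every mutant library lay above every control library, and the mutant groups overlapped with each other. The fitted log2 fold change was 2.60 (SE 0.18, adjusted p = 2.7e-10) in Hdac1-deficient and 2.73 (SE 0.17, adjusted p = 1.2e-11) in Hdac2-deficient enteroids, a 6.04-fold (95% CI 4.67 to 7.82) and a 6.62-fold (5.21 to 8.41) higher level. Among all tested genes ordered by log2 fold change, Cfi stood at place 218 and place 126 from the top. Between the mutants the difference was -0.13 (95% CI -0.39 to 0.12, adjusted p = 0.40), Hdac1-deficient minus Hdac2-deficient. The genes next to Cfi were not raised: Gar1, on one side, was at -0.17 and -0.19, and Pla2g12a, on the other, was at -0.39 and -0.03 on the log2 scale in Hdac1- and Hdac2-deficient enteroids.

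Cfb (ENSMUSG00000090231, chr17:34856374-34862518, minus strand), the catalytic partner of C3b in the alternative pathway convertase, rose by a smaller factor from a higher level. It was at 25.8, 25.9, 24.3 and 23.8 CPM in control replicates 1 to 4, at 34.4, 37.0, 36.0 and 37.8 CPM in Hdac1-deficient replicates and at 42.0, 33.7, 30.4 and 32.4 CPM in Hdac2-deficient replicates. Both mutant groups lay wholly above control, and in the Hdac2-deficient group replicate 1 stood above the other 3. The log2 fold change was 0.56 (SE 0.048, adjusted p = 3.8e-09) in Hdac1-deficient and 0.49 (SE 0.0846, adjusted p = 0.00026) in Hdac2-deficient enteroids. The difference between the mutants, 0.06, did not pass the test (95% CI -0.09 to 0.21, adjusted p = 0.51). Without Hdac2-deficient replicate 1, the Hdac1-deficient level was higher by 0.17 on the log2 scale (adjusted p = 0.0089), so the call depends on that library. Cfb overlaps on its own strand with the gene model Gm20547, which had no row, and reads shared by both may have been left out in counting. The neighbouring complement gene C2, which encodes the classical pathway counterpart of factor B, was at 0.22 (adjusted p = 0.41) and -0.50 (adjusted p = 0.094).

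C3 (ENSMUSG00000024164, chr17:57203970-57228136, minus strand), the protein on which all complement pathways converge, was scarce in these cultures. It had 13, 8, 12 and 7 counts in control replicates 1 to 4, 17, 18, 19 and 21 counts in Hdac1-deficient replicates and 23, 19, 13 and 19 counts in Hdac2-deficient replicates. In CPM these are 0.283 to 0.436 in control, 0.583 to 0.762 in Hdac1-deficient and 0.629 to 0.848 in Hdac2-deficient libraries, so both mutant groups lay above control without overlap. The log2 fold change was 0.87 (SE 0.27, adjusted p = 0.0073) and 1.11 (SE 0.27, adjusted p = 0.0014), with 95% intervals of 0.32 to 1.43 and 0.54 to 1.67. Since C3 entered the test through the mutant libraries, these p-values carry the limit given above; with a filter on the mean count over the libraries of both groups, which does not use the groups, the values were 0.87 (adjusted p = 0.0076) and 1.11 (adjusted p = 0.0014). The interval of the difference between the mutants, -0.72 to 0.25, was wide at this depth.

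Cd55 (ENSMUSG00000026399, chr1:130439027-130462744, minus strand), the membrane-anchored decay accelerating factor, was the single gene of the 5 that differed between the mutants. It was at 26.3, 24.5, 27.0 and 24.8 CPM in control replicates 1 to 4, at 33.3, 29.9, 32.6 and 35.5 CPM in Hdac1-deficient replicates and at 41.8, 39.9, 42.4 and 39.1 CPM in Hdac2-deficient replicates. The 3 groups did not overlap, with control lowest and Hdac2-deficient highest. The log2 fold change against control was 0.37 (SE 0.0544, adjusted p = 6.8e-06) in Hdac1-deficient and 0.68 (SE 0.0463, adjusted p = 4.9e-11) in Hdac2-deficient enteroids. Hdac1-deficient enteroids were lower than Hdac2-deficient ones by a log2 difference of -0.31 (95% CI -0.41 to -0.21, adjusted p = 1.1e-05). In that comparison 1 of the 5 tested genes changed downward and 0 upward, where 23.7% of the 14510 tested genes changed downward and 22.3% upward, and none of the 5 was called, where 5.62% of all tested genes were. The paralog Cd55b, a closely related copy that may share reads with Cd55, moved the other way, from 1.69 ± 0.504 CPM in control to 1.03 ± 0.102 in the Hdac1-deficient libraries (log2 fold change -0.69, adjusted p = 0.0094) and 0.973 ± 0.284 in the Hdac2-deficient libraries (-0.76, adjusted p = 0.013). An antisense gene, Gm16083, overlaps Cd55 and had no row. The adjacent gene Gm15675, 1836 bp away, rose by 1.11 (adjusted p = 3.7e-05) and 0.88 (adjusted p = 3.1e-05) on the log2 scale.

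**Figure D2:**
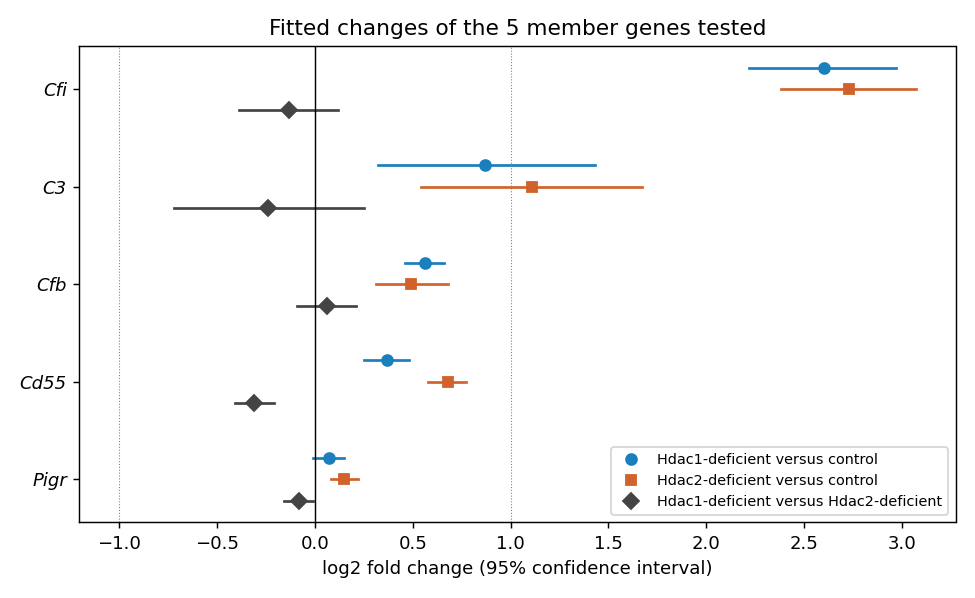
Log2 fold change with its 95% confidence interval (horizontal axis) of the 5 tested genes in the 2 comparisons with control and in Hdac1-deficient against Hdac2-deficient enteroids; dotted lines mark a 2-fold change. Cfi lies beyond the 2-fold line in both mutants, and the interval of Cd55 between the mutants, -0.41 to -0.21, does not include 0.

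Pigr (ENSMUSG00000026417, chr1:130826684-130852249, plus strand) moved least despite its depth of 55440 to 82620 counts per library. It was at 2432, 2640, 2600 and 2508 CPM in control replicates 1 to 4, at 2769, 2675, 2627 and 2490 CPM in Hdac1-deficient replicates and at 2942, 2767, 2683 and 2799 CPM in Hdac2-deficient replicates. The Hdac1-deficient libraries overlapped with control and the Hdac2-deficient ones did not. The log2 fold change was 0.07 (95% CI -0.01 to 0.15, adjusted p = 0.14) in Hdac1-deficient and 0.15 (SE 0.0346, adjusted p = 0.00092) in Hdac2-deficient enteroids, the latter a 1.11-fold (95% CI 1.05 to 1.16) higher level. Without Hdac1-deficient replicate 4, the value in Hdac1-deficient enteroids was 0.10 (adjusted p = 0.032). The difference between the mutants was -0.08 (adjusted p = 0.068), and it passed the threshold at -0.10 without Hdac1-deficient replicate 1 (adjusted p = 0.034) or without Hdac2-deficient replicate 3 (adjusted p = 0.042). Pigr and Cd55 lie 363940 bp apart on chromosome 1. Of the 5 tested genes between them, C4bp was at 0.25 and 0.36, Pfkfb2 at 0.72 and 0.60, Yod1 at 0.41 and 0.17, AA986860 at 0.62 and 0.91, and Gm15848 at 0.18 and -0.03 on the log2 scale in Hdac1- and Hdac2-deficient enteroids, and all but Gm15848 were changed in both.

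Lcn2 (ENSMUSG00000026822, chr2:32384633-32388252, minus strand) had 5, 5, 3 and 3 counts in control replicates 1 to 4, 5, 11, 10 and 9 counts in Hdac1-deficient replicates and 5, 8, 1 and 3 counts in Hdac2-deficient replicates. In CPM every Hdac1-deficient library (0.188 to 0.356) was above every control library (0.0995 to 0.177), and the Hdac2-deficient libraries spanned both. An exact two-sided permutation test of the 4 against 4 CPM values gave p = 0.02857 for Hdac1-deficient, which is the smallest it can give, and p = 0.6571 for Hdac2-deficient enteroids, and between the mutants the exact permutation p was 0.05714. Saa3 (ENSMUSG00000040026, chr7:46711998-46715700, minus strand) had 6, 4, 4 and 1 counts in control replicates, 6, 9, 7 and 3 in Hdac1-deficient and 2, 5, 5 and 3 in Hdac2-deficient replicates. Its groups overlapped, with exact permutation p = 0.1714 and 0.6 against control and 0.3429 between the mutants. Fitted without the filter on low counts, Saa3 was at 0.68 (SE 0.498, adjusted p = 0.26) and 0.23 (SE 0.575, adjusted p = 0.78), so its change was not resolved. Counted over the 7 listed genes, 5 had mutant libraries that did not overlap with control in Hdac1-deficient (Lcn2, C3, Cfb, Cfi, Cd55) and 5 in Hdac2-deficient enteroids (Pigr, C3, Cfb, Cfi, Cd55), all of them higher. Of all tested genes, 28.1% and 27.6% were higher without overlap. Between the mutants, 1 of the 7 (Cd55) was lower without overlap in Hdac1-deficient enteroids, against 22.2% of all tested genes.

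**Figure D3:**
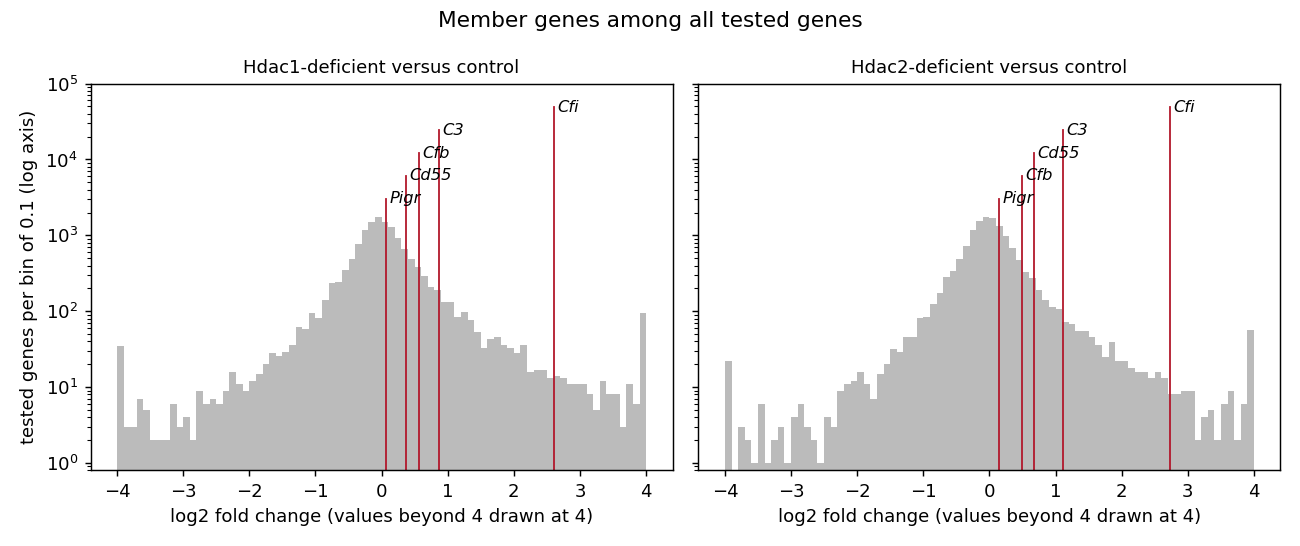
Distribution of the log2 fold changes of all tested genes (grey, log vertical axis) in each mutant against control, with the 5 tested genes as red lines, whose heights only separate the labels. Cfi lies in the upper tail at 2.60 and 2.73, while Pigr lies near the centre at 0.07 and 0.15.

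Relative to factor B, factor I was higher in both mutants than in control. The Cfi level per kilobase, as a ratio to that of Cfb, was 0.0531 ± 0.0188 in control libraries. It was 0.216 ± 0.0353 for the Hdac1-deficient and 0.252 ± 0.0434 for the Hdac2-deficient libraries, with no overlap with control in either. The ratio of Cd55 to Cfb was 0.600 ± 0.0393 in control, 0.527 ± 0.0403 for the Hdac1-deficient and 0.695 ± 0.0945 for the Hdac2-deficient libraries, and both mutants overlapped with control. These ratios were computed per library and carry no test.

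A list of 45 other complement genes was compared in the same way, and most of them were not tested. In Hdac1-deficient enteroids 17 were tested, of which 11 were changed upward, 2 downward and 4 did not pass, and the median log2 fold change was 0.52. For Hdac2-deficient enteroids 15 were tested, with 10 upward, 2 downward and 3 not passing, and a median of 0.55. Of all tested genes, 32.7% and 31.4% changed upward and 31.9% and 30.9% downward. The upward counts include 4 genes in Hdac1-deficient (C1s1, C4a, Masp2 and Mbl2) and 2 in Hdac2-deficient enteroids (C4a and Mbl2) whose control libraries did not all reach the filter's limit. These genes were tested through the mutant group in which they were higher, so the counts and medians carry no test. Clusterin (Clu), a secreted chaperone that inhibits the terminal complex, went from 28.0 ± 2.64 CPM in control to 92.7 ± 10.7 in Hdac1-deficient (log2 fold change 1.74, SE 0.09, adjusted p = 6.3e-08) and 118 ± 13.4 CPM in Hdac2-deficient enteroids (2.08, SE 0.10, adjusted p = 1.3e-07). Cfhr2, another complement gene of the list, rose by 0.47 (adjusted p = 0.0035) and 1.45 (adjusted p = 2.1e-10). Among the cofactors that factor I needs, C4bp, which binds C4b, rose by 0.25 (adjusted p = 0.0097) and 0.36 (adjusted p = 0.00038). Cr1l, which encodes the membrane cofactor Crry of rodents, was at -0.02 (adjusted p = 0.72) and 0.11 (adjusted p = 0.027). Cd46, a membrane cofactor named for its role after its values were seen, was scarce. Its level was 0.806 ± 0.120 CPM in the control libraries, 2.20 ± 0.396 CPM in the Hdac1-deficient (log2 fold change 1.45, adjusted p = 1.2e-06) and 1.18 ± 0.111 CPM in the Hdac2-deficient libraries (0.55, adjusted p = 0.024). Between the mutants, Cd46 was higher by a log2 difference of 0.89 (adjusted p = 0.00015) in Hdac1-deficient enteroids.

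Few other acute phase genes were expressed. Of 37 on the list, 10 were listed and 8 tested in the Hdac1 comparison, with 6 changed upward and 1 downward, and 12 listed and 6 tested in the Hdac2 comparison, with 4 upward and 0 downward. Hp, which encodes haptoglobin, was not among them. The list mixes genes that rise in the acute phase with genes that fall in it, such as Alb, Ttr and Trf. Alb, Ttr and Trf were among the genes changed upward in Hdac1-deficient enteroids, and Alb and Ttr in Hdac2-deficient enteroids. The upward counts are therefore no measure of an acute phase response. The metallothioneins, metal-binding proteins of the stress response, were the most abundant. Mt2 was at 461 ± 22.8 CPM in control, 957 ± 88.1 in Hdac1-deficient (log2 fold change 1.07, adjusted p = 9.6e-10) and 501 ± 13.4 CPM in Hdac2-deficient enteroids (0.13, adjusted p = 0.0016), and Mt1 changed by 0.72 (adjusted p = 6.6e-09) and 0.28 (adjusted p = 4.5e-06). Ttr, which encodes the thyroxine carrier transthyretin, changed by 0.67 (adjusted p = 0.00077) and 0.56 (adjusted p = 0.0022). Lbp, which encodes the lipopolysaccharide-binding protein and was named after its values were seen, was scarce, at 1.02 ± 0.112 CPM in control. It was at 0.148 ± 0.0473 CPM in Hdac1-deficient enteroids, near the detection floor (log2 fold change -2.75, adjusted p = 8.2e-08). In Hdac2-deficient enteroids it was at 0.909 ± 0.156 CPM (-0.15, adjusted p = 0.54). The upward counts of this list, to be read against the same 32.7% and 31.4%, include 2 genes in Hdac1-deficient (Alb and Serpina1b) and 1 in Hdac2-deficient enteroids (Alb) that entered the test through the mutant libraries.

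Receptors, kinases and transcription factors that induce these genes were almost all expressed. Of 35 on that list, 32 were tested in the Hdac1 comparison, with 19 changed upward and 7 downward (median 0.17). In the Hdac2 comparison 31 were tested, with 20 upward and 4 downward (median 0.26). Of all tested genes, 32.7% and 31.4% changed upward and 31.9% and 30.9% downward. The upward count in Hdac1-deficient enteroids includes Il1r1, which entered the test through the mutant libraries, so these counts and medians carry no test. Nfkbiz, the nuclear inhibitor family protein IkB-zeta that is needed for induction of Lcn2, went from 11.4 ± 0.301 CPM in control to 29.3 ± 2.86 in Hdac1-deficient (1.38, adjusted p = 6.9e-13) and 21.4 ± 2.38 CPM in Hdac2-deficient enteroids (0.91, adjusted p = 4.2e-10). The interleukin 22 receptor subunit Il22ra1 rose by 1.24 (adjusted p = 9.1e-08) and 0.80 (adjusted p = 3.6e-09). The lipopolysaccharide receptor Tlr4 was at -0.11 (adjusted p = 0.58) and 0.73 (adjusted p = 0.00020), and the NF-kB cofactor Bcl3 changed by 0.24 (adjusted p = 0.00019) and 0.71 (adjusted p = 1.5e-11). Stat3 changed by 0.16 (adjusted p = 0.00086) and 0.28 (adjusted p = 4.8e-07), and Cebpb by 0.27 (adjusted p = 7.4e-05) and 0.38 (adjusted p = 7.7e-08). Cebpd was at -0.07 (adjusted p = 0.55) and -0.09 (adjusted p = 0.51). Among the genes that changed downward in both mutants, named after their values were seen, the kinase Jak2 was at -0.67 (adjusted p = 4.5e-12) and -0.55 (adjusted p = 7.9e-12), and the NF-kB subunits were at -0.55 and -0.57 (Rela), -0.30 and -0.22 (Nfkb2) and -0.25 and -0.13 (Nfkb1). Of 10 receptors and partners of the proteins studied, 5 were tested in each comparison. In Hdac1-deficient enteroids 1 changed upward and 1 downward, and in Hdac2-deficient enteroids 2 upward and 1 downward, to be read against the same shares. The lipid scavenger receptor Cd36 rose by 0.85 (adjusted p = 1.6e-11) and 1.17 (adjusted p = 1.8e-14), and Scarb1, another such receptor, was at -0.53 (adjusted p = 1.5e-09) and 0.12 (adjusted p = 0.014).

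**Figure D4:**
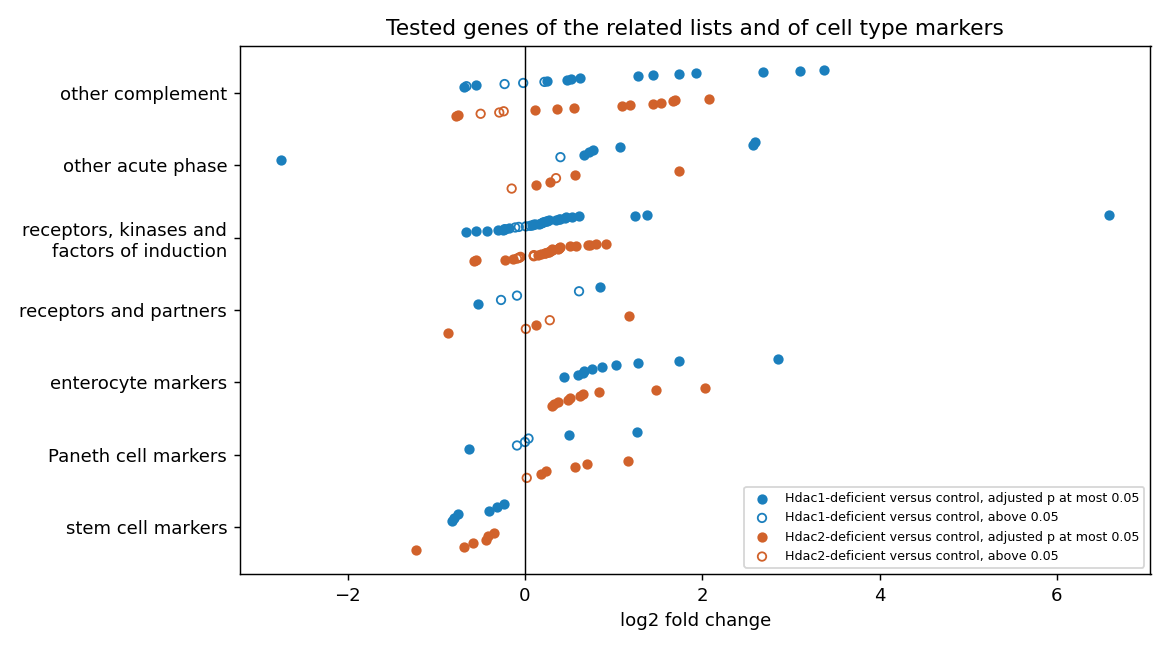
Log2 fold change (horizontal axis) of each tested gene of the related lists and of 3 lists of cell type markers in both mutants against control; filled points passed an adjusted p of 0.05 and open points did not. All 10 enterocyte markers lie to the right of 0 and all 6 stem cell markers to the left in both mutants.

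The mutant enteroids also differed from control in cell type markers. All 10 of 10 enterocyte markers were changed upward in both mutants, with a summed level of 15810 to 17210 CPM in control, 28000 to 32190 in Hdac1-deficient and 22120 to 25470 CPM in Hdac2-deficient libraries. Paneth cell markers, of which 8 of 9 were listed, summed to 2132 to 2485, 3098 to 3362 and 3378 to 3531 CPM, and goblet cell markers (8 of 8 listed) to 1909 to 2141, 1957 to 2095 and 3016 to 3243 CPM. Within these lists the genes did not move alike in Hdac1-deficient enteroids. Of 6 Paneth cell markers tested there, 2 changed upward (Lyz1 by 1.26 and Itln1 by 0.50) and 1 downward (Ang4, -0.63), and of 8 goblet cell markers 3 changed upward (Zg16 by 1.36, Clca1 by 1.22 and Muc2 by 0.99) and 2 downward (Tff3, -0.40, and Spink4, -0.38). In Hdac2-deficient enteroids 5 of 6 Paneth and 7 of 8 goblet cell markers changed upward and 0 downward. Stem cell markers were all 6 changed downward in both mutants, with sums of 4637 to 4769, 2776 to 3222 and 2488 to 2720 CPM. In bulk RNA, fewer cells of a type and less RNA per cell cannot be told apart, and the part of these shifts in the levels of Cfi, Cfb, C3, Cd55 and Pigr was not tested. The same holds for the immune markers, whose sum was higher in all Hdac1-deficient libraries than in control. Most of that sum was Lyve1, at -0.03 (adjusted p = 0.76) in Hdac1-deficient and -0.52 (adjusted p = 7.4e-05) in Hdac2-deficient enteroids. Of 5 immune markers tested in the Hdac1 comparison, 3 changed upward (S100a9 by 2.60, Itgam by 1.28 and Csf1r by 0.81). S100a9 and Csf1r entered that test through the Hdac1-deficient libraries, in which they were higher, so the count carries no test. Of 3 tested in the Hdac2 comparison, 2 changed upward (Itgam by 1.69 and Cd68 by 0.45). Of 8 hepatocyte markers, which include genes that enterocytes express, 5 were listed, with overlapping sums of 3050 to 3626 CPM over the 3 groups. In each mutant 4 of these 5 changed upward and 1 downward. Apob was at 1.08 and 1.03, Cyp2e1 at 0.99 and 1.84, Alb at 2.60 and 1.74 and Ttr at 0.67 and 0.56 on the log2 scale. Cps1, the most abundant, was at -0.46 and -0.48. Alb entered the test through the mutant libraries in both comparisons.

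Across the 12 libraries, the gene whose log2 CPM followed each tested gene most closely among 11505 candidates was Sprr1a for Cfi (Pearson r = 0.987), Ino80c for Cfb (0.961), Cln8 for C3 (0.976), Tbc1d2 for Cd55 (0.989) and Zscan29 for Pigr (0.915). For Cfi, the Paneth cell gene Lyz1 and Acta1 came next, both at 0.985. Not all Paneth cell markers rose with Cfi in Hdac1-deficient enteroids, where Itln1 was at 0.50, Mmp7 at 0.04 and Ang4 at -0.63 on the log2 scale. These values are descriptions over 12 libraries that share their 3 groups, so they follow the differences between the groups as well as those within them.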

How the data were processed

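Poly(A) RNA was sequenced by the study as paired reads and aligned with STAR to GRCm38 (version 2.4.0f1 in the submitters' processing notes). The program used for counting is not given in the sources used here. The authors deposited 1 table per mutant, with the same 4 control libraries in both. The deposited counts are unnormalized whole numbers of reads for each gene, and a gene is listed where its 8 libraries sum to 10 or more. Columns of a normalized score, log2 fold changes and average log2 CPM, and p-values deposited by the authors were not used. Counts were tested with edgeR (4.0.16) in R (4.3.3), with TMM scaling, its filter on low counts, robust dispersions and Benjamini-Hochberg adjustment; each mutant was fitted with control (8 libraries), and the mutants were compared in 1 fit of the 12 libraries. CPM used TMM factors of 0.980 to 1.02. The biological coefficient of variation was 0.0425, 0.0384 and 0.0394. Exact permutation tests were added for Lcn2 and Saa3 after their counts were seen. The fits were tested on simulated data with known changes. Gene positions and exon lengths came from GENCODE M21, and promoters from RefSeq (GRCm38.p6). The genes and lists were chosen with earlier results of these data known. From each list, up to 4 changed genes with the largest fold change and an average log2 CPM of at least 1 were named. Stat3, Nfkbiz, Cebpb, Cebpd, Hp and Cd55b were named besides these. Cd46, Lbp, Trf, Jak2, the NF-kB subunits, the genes tested through the mutant group and some cell type markers were named after their values were seen.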

Additional observations from a re-analysis of the deposited data

Results flagged for a closer look

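The level of Cd55 differed between the mutants by the test of the difference itself: the log2 difference of Hdac1-deficient minus Hdac2-deficient enteroids was -0.31 (95% CI -0.41 to -0.21, edgeR quasi-likelihood test, adjusted p = 1.1e-05), with 32.8 ± 2.31 and 40.8 ± 1.56 CPM (SD, n = 4). All 4 Hdac1-deficient libraries lay below all 4 Hdac2-deficient ones, and the value lay between -0.35 and -0.26 when each library was left out in turn.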

How the results depend on the processing

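With DESeq2, other scaling factors, other filters on low counts, other sets of libraries and the replicate block, all 105 fold changes of the 5 tested genes kept their direction and side of the threshold, and with 1 library left out 136 of 140 did. The other 4 passed the threshold only without that library: Pigr in Hdac1-deficient enteroids (0.10), Pigr between the mutants (-0.10 in 2 cases) and Cfb between the mutants (0.17). The number of genes called over all tested genes was 1507, 1162 and 816 for Hdac1-deficient against control, Hdac2-deficient against control and Hdac1-deficient against Hdac2-deficient. Without the filter on low counts it was 2335 and 1792 in the comparisons with control, and 2 of the genes studied were called in Hdac1-deficient enteroids, Lcn2 (1.07, adjusted p = 0.037) besides Cfi. Without a limit on the fold change it was 9196, 8729 and 6665, with 4, 5 and 1 of the genes studied. Leaving out 1 library gave 1517 to 1624, 1195 to 1270 and 831 to 874 genes called; of the genes studied, 1, 2 and 0 were then called and 4 to 5, 5 and 1 to 2 were changed. Same-numbered libraries did not deviate together (correlations of -0.169 to 0.209 over 12 pairs, and -0.193 to 0.214 over 36 pairs of other numbers), and with the replicate block 1501, 1158 and 812 genes were called. Lcn2 and Saa3, with 1 to 11 counts per library, are limited by depth.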
